A study of Mus musculus with 36 samples.

Results

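The regions described here are 165 stretches of open chromatin in mouse bone marrow-derived dendritic cells that opened after Sendai virus and after the cyclic dinucleotide cGAMP, and opened less when the ligand labelled PAM was given at the same time. They are called the blunted peaks below. They were chosen by measured values from 116556 ATAC-seq peaks on chromosomes 1 to 19. The measure was log2(CPM + 0.5), where CPM is the count scaled to library size, set relative to the median of each library and averaged over the 2 libraries of a group. A blunted peak lay at least 1 above the unstimulated control with virus alone and with cGAMP alone, and both values dropped by at least 0.7 when PAM was added. In all, 7242 peaks passed the opening step, so the blunted peaks were 2.28% of those. The other 7077 are called the other opened peaks.

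Sendai virus, labelled SeV, is an RNA virus sensed in the cytoplasm by RIG-I, and 3',3'-cGAMP binds the adaptor STING. Both routes lead through the kinase TBK1 to the transcription factor IRF3 and to type I interferon, which acts back on the cells through its receptor and a complex of transcription factors that contains IRF9. Genes switched on in this way carry response elements built from repeated GAAA words. LPS is sensed by TLR4, which feeds both this arm and the inflammatory NF-kappaB arm, and zymosan is a particle made from yeast cell wall. In dendritic cells, interferon-induced genes such as the Ifit, Oas and Cmpk2 genes limit viral replication.

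All cells were grown from bone marrow of female C57BL/6J mice 6 to 8 weeks old in GM-CSF at 15 ng/mL, and all ligands were left on for 6 h. The 18 groups of 2 libraries were Ctrl (no ligand), P (PAM), L (LPS), H (HMW, which the labels do not spell out), S (SeV), cG (cGAMP), Z (depleted zymosan), PL, PH, LH, PS, PcG, ScG, ZS, ZcG, PLH, PScG and ZScG. The letters of a combination name its ligands. The labels do not say whether the 2 libraries of a group came from separate cultures or mice, so p-values measure the spread between libraries, which may be technical.

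Of the blunted peaks, 3 overlap a promoter window of 250 bases before to 50 after a start site in the RefSeq table used (GRCm38.p6), and the window of Ifi44 is printed because it is the one at an interferon-induced gene. The window of Ifit3 is printed beside it for contrast. Its own peak was not among the opened ones, whereas a second peak within Ifit3, 5371 bp from the start site, was a blunted peak. Capitals mark paired GAAA words (or TTTC on the other strand). Both windows are given 5′ to 3′ in the direction of the gene, Ifi44 at chr3:151749861-151750160 on the minus strand and Ifit3 at chr19:34583279-34583578 on the plus strand.

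Ifi44 promoter: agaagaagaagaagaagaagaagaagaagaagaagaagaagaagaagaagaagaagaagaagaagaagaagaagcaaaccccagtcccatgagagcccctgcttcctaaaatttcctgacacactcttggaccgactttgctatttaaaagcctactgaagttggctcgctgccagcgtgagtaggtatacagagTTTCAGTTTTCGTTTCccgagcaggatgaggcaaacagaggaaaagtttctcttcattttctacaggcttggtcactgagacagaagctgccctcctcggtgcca

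Ifit3 promoter: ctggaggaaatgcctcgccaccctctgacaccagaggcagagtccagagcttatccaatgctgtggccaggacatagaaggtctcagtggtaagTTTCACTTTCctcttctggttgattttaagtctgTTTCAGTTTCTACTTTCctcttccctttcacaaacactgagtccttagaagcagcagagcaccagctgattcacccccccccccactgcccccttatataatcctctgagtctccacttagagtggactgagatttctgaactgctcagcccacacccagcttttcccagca

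The core of the interferon-stimulated response element was searched as GAAANNGAAA on both strands. It was found at 2 places in the Ifit3 window, with 1 pair at another spacing, and at none in the Ifi44 window. The Ifi44 window held 2 GAAA pairs at the neighbouring spacings GAAANGAAA or GAAANNNGAAA, which overlap each other, a search added after this window was read. The first pattern is in 3.44% and the second search in 5.67% of all 32851 promoter windows. Among the 151 windows that overlap any opened peak, 20 (13.2%) held GAAANNGAAA. The other blunted peaks at start sites lay at Gm32293 and 1700109I08Rik, and neither window held any of these pairs. These matches describe letters in a window and not bound sites.

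The peak over the Ifi44 promoter, chr3:151749581-151750141, measured 3.55 and 3.13 CPM in the Ctrl libraries, 10.6 and 10.7 in S, and 13.7 and 10.1 in cG. With PAM it measured 3.83 and 4.89 CPM in PS and 7.18 and 5.26 in PcG. The peak over the Ifit3 promoter was far more open and moved less. It measured 34.6 and 28.6 CPM in Ctrl, 58.0 and 55.1 in S, and 52.1 and 51.9 in PS. Its difference from Ctrl was 0.68 in S and 0.60 in cG on the centred log2(CPM + 0.5) scale, under the opening threshold, and its PAM differences were -0.14 and -0.28. The blunted peak inside Ifit3, chr19:34588900-34591147, fell from 16.0 and 14.5 CPM in S to 8.50 and 6.58 in PS, and from 16.3 and 12.8 in cG to 7.74 and 8.01 in PcG.

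Total counts per library ranged from 19097027 to 39977088, of which 44.1% to 63.1% lay in a single peak over the mitochondrial genome. Chromosomes 1 to 19 held 5973882 to 18387733 counts. The mitochondrial share was high in Ctrl (61.0% ± 1.23, SD, n = 2), Z (61.7% ± 1.06), ZcG (63.0% ± 0.157), ScG (59.4% ± 2.97) and ZScG (58.3% ± 0.556), and 54.5% ± 5.04 in ZS. In the other 12 groups its mean was 44.4% to 51.6%. The labels name no batch. Comparisons across this gap carry it along. All 12 dendritic or myeloid marker genes had a peak within 10 kb, with a median of 21.3 CPM at each gene's highest peak, and no blunted peak lay at any of these genes or at macrophage, neutrophil, T, B or NK cell markers. The median at macrophage markers was higher, at 32.8 CPM, and those at T and NK cell markers were 9.05 and 18.4 CPM. The dendritic or myeloid, macrophage and neutrophil lists held 8, 5 and 0 opened peaks, and the T, B and NK cell lists 0, 3 and 1. That is too few for a count of 0 blunted peaks to stand out.

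Values used by the rule are a description and carry no test. The median of the blunted peaks lay 1.63 above Ctrl in S and 1.54 in cG, and the median drop with PAM was -0.87 in PS minus S and -0.95 in PcG minus cG. The deepest drops were -1.67 and -1.82. Each arm alone was much wider, since 447 opened peaks met the PAM threshold with virus and 813 with cGAMP. Just inside the threshold was a peak at chr1:161613600-161613904, over 50 kb from a gene, with differences of -0.70 and -0.77. A peak inside Fat3, chr9:16106944-16107304, was the next, with -0.70 and -1.11. Just outside lay chr17:37185362-37185979 near Ubd (-0.699 and -0.716) and chr6:17021525-17022032 near Tes (-0.92 and -0.699), so the boundary separates peaks that are alike.

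Most blunted peaks were small and far from start sites. Of the 165, 74 lay in or across a protein-coding gene, 57 within 50 kb of one and 34 farther away. The share inside genes was 44.8%, against 56.7% of the other opened peaks and 59.4% of all peaks. Only 6 of the 159 peaks outside chromosome 18, for which the start-site table has entries, lay within 1 kb of a start site (3.77%), compared with 4.69% of the other opened peaks and 13.0% of all peaks. Their median width was 394 bp against 513 bp for the other opened peaks, and their median level over all libraries was 1.86 CPM against 3.39. Per library they held a median of 17 counts, the highest being 246, and 102 values were 0. The choice of members rested on few counts. With replicate 1 or replicate 2 left out, 284 or 331 peaks qualified rather than 165, of which 69 or 71 were among the 165. Both single replicates gave 20 in common.

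Of the 5 gene lists examined, the interferon-induced effectors held most of the blunted peaks that lay at any listed gene. Of the 165, 7 (4.24%) lay in or within 10 kb of a gene among 50 listed effectors, against 1.81% of all opened peaks and 0.394% of all peaks. They lay at Ifit3 and Ifit1bl1, Ifi44 and Ifi44l, Trim30a, Cxcl11, Oas2 and, with 2 peaks, Cmpk2. One more, inside Rnf31, lay near Irf9, a DNA-binding part of the interferon-activated transcription factor complex. None lay at the listed interferon production genes, at the inflammatory genes or at genes of TLR2 and MyD88. These lists held 22, 39 and 7 opened peaks, too few for a count of 0 to stand out at a share of 2.28%.

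Across the 18 groups the blunted peaks were most open where SeV or cGAMP was given without PAM, also in the groups that the rule did not use. Differences from Ctrl share the Ctrl libraries and are given as a description. The rule used Ctrl too, so picking peaks with low Ctrl values raises every such difference in both opened sets. Ctrl had a mitochondrial share of 61.0%, so the differences of the 12 groups with low shares cross that gap, whose part was not tested. PAM alone left the blunted peaks at their Ctrl level, with a median difference of 0.04 and 4 of 165 at 1 or above, whereas the other opened peaks had a median of 0.64 in P. Depleted zymosan alone gave 0.49, LPS 0.58 and HMW 0.82. The corresponding medians of the other opened peaks were 0.70, 1.09 and 0.90, so the gap between the sets was wider with LPS than with HMW. In ScG, ZS, ZcG and ZScG the blunted peaks reached 1.38, 1.20, 1.32 and 1.32. With PAM added, HMW gave 0.44 in place of 0.82. LPS gave 0.56 in place of 0.58, and LPS with HMW 0.62 in place of 0.60. In PScG the blunted peaks stood at 0.96, where the other opened peaks were at 1.56.

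**Figure D1:**
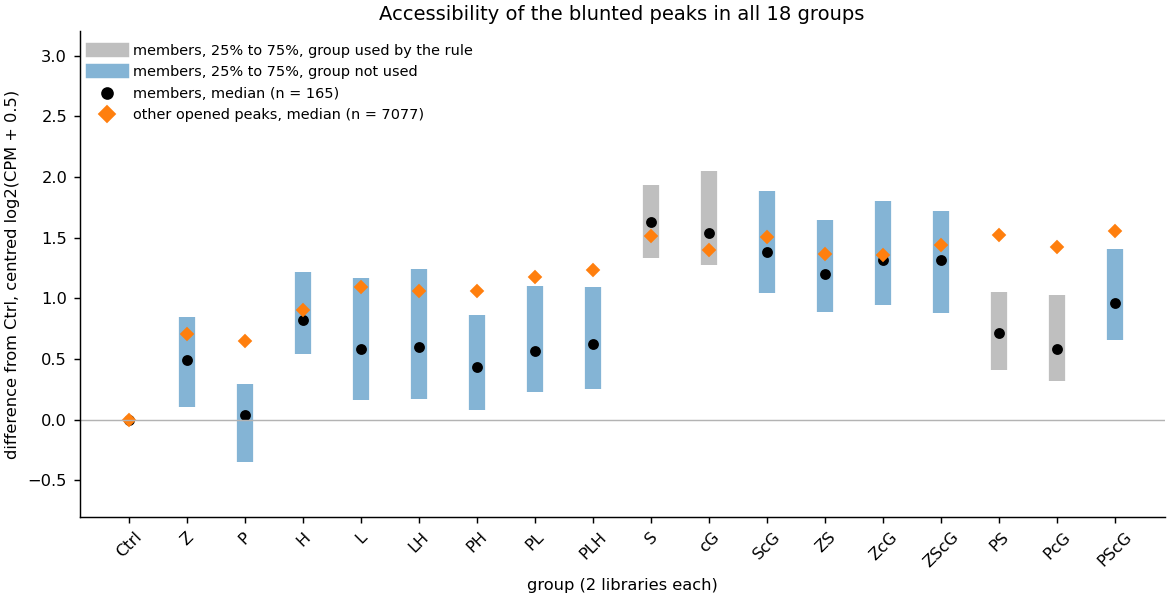
Difference from Ctrl in centred log2(CPM + 0.5) (vertical axis) in each of the 18 groups (horizontal axis), with the median (black point) and middle 50% (bar) of the 165 blunted peaks and the median of the 7077 other opened peaks (orange). Grey bars are groups used by the rule. The black points lie near 0 in P and at 0.96 in PScG, below the orange points in both.

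Single ligands split the blunted peaks. By the same differences, 38 lay at least 1 above Ctrl in both L and H, 12 in L alone, 27 in H alone and 88 in neither. This split was not counted for the other opened peaks or for all peaks, so it only describes the members. Counted for each ligand, 50 reached 1 in L and 65 in H. The counts were 3996 and 2955 of the 7077 other opened peaks and 9616 and 5513 of all 116556 peaks. Both opened sets were chosen against Ctrl, so the comparison with all peaks is partly set by the rule. The heat map of all members shows a block of deep red under every SeV or cGAMP group without PAM, and rows that differ in the L, H and LH columns.

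**Figure D2:**
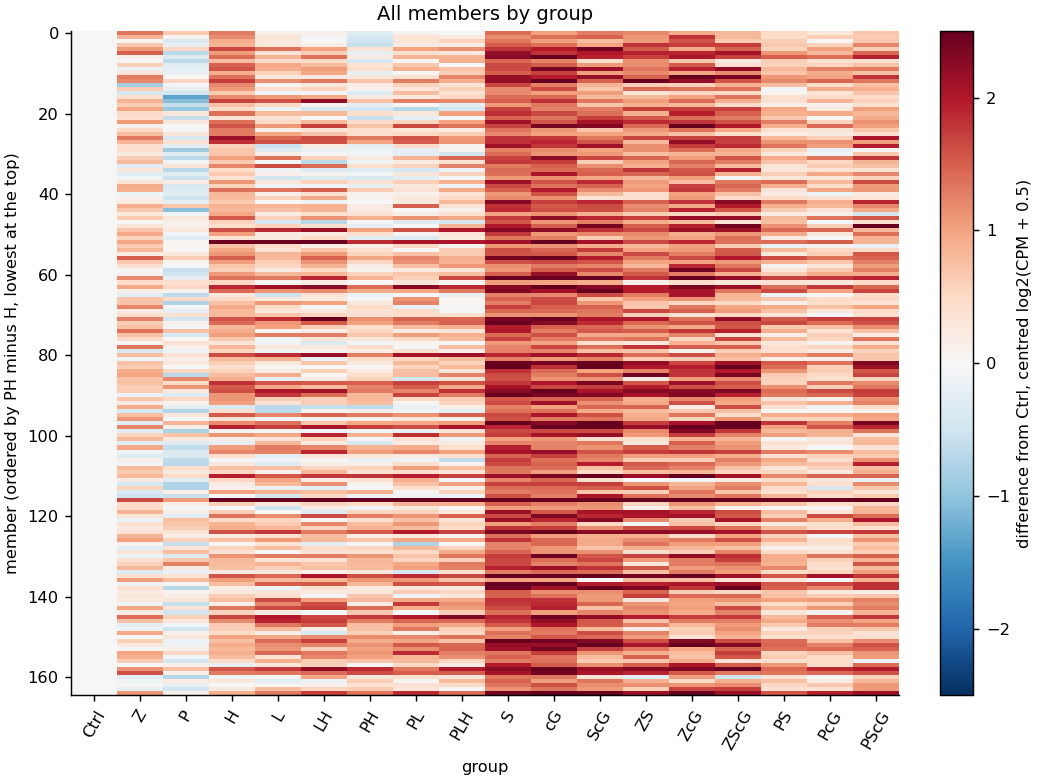
Each row is 1 of the 165 blunted peaks and each column a group, coloured by the difference from Ctrl in centred log2(CPM + 0.5). Rows are ordered by PH minus H. The columns S, cG, ScG, ZS, ZcG and ZScG are the darkest, P is near white or blue, and 27 rows reach 1 in H but not in L.

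PAM added to HMW lowered part of the blunted peaks. This contrast uses none of the libraries behind the rule, and its groups had like mitochondrial shares (50.4% ± 2.34 in PH and 51.6% ± 2.45 in H, SD, n = 2). Fitted over all 119464 tested peaks with edgeR's quasi-likelihood test and Benjamini-Hochberg adjustment, 16 of 165 fell in PH against H at an adjusted p under 0.05, where 2.27% of all peaks fell. None rose, against 5.28% of all peaks, with 0 higher by DESeq2. At an unadjusted p under 0.05, 0 were higher, against 13177 of all 119464 tested peaks. The median log2 fold change was -0.49 and 134 of 165 were below 0. The other opened peaks went mostly the other way, with 90 lower, 973 higher and a median of 0.20. Both PH libraries lay below both H libraries at 73 of the blunted peaks (44.2%), compared with 26.5% of all peaks. The number that fell is unstable, at 10 with DESeq2 and 6 to 8 when any 1 of the 4 libraries was left out.

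The 16 peaks that fell included 6 of the 8 most open members. Peaks with more counts had smaller standard errors, so this does not show a larger effect at open members. One of the 6, Ifit3, is described with the interferon genes below. The peak at Sgsm1, a Rab GTPase-activating protein gene, chr5:113276923-113277959, measured 5.31 and 7.34 CPM in H and 2.10 and 2.07 in PH. Its log2 fold change was -1.61 ± 0.31 (SE, edgeR adjusted p = 3.7e-05), and the libraries did not overlap. The most open member, chr8:120224984-120226313, lies 2188 bp from Gse1, which encodes a chromatin-associated protein. It measured 15.7 and 14.5 CPM in H and 9.28 and 6.22 in PH (log2 fold change -1.0 ± 0.20, edgeR adjusted p = 0.000138). The peak in Atp13a4, a P-type ATPase gene, fell from 8.04 and 8.12 to 4.46 and 4.96 CPM, and that in Dhx34, a helicase of RNA decay, from 8.37 and 7.90 to 5.69 and 3.56. Their edgeR adjusted p-values were 0.0259 and 0.0288. A peak at chr8:10859595-10860508, over 50 kb from a gene, fell from 7.05 and 6.68 CPM to 4.64 and 2.44 (edgeR adjusted p = 0.0107).

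PAM added to SeV with cGAMP gave a like median with fewer calls. In PScG against ScG, 7 of 165 fell by edgeR, against 2.42% of all tested peaks, and none rose, against 2.11% (0 by DESeq2, and 0 at an unadjusted p under 0.05). At an unadjusted p under 0.05, 37 were lower and none higher, against 9979 and 9918 of all 119464 tested peaks. The median log2 fold change was -0.44 (-0.15 under total-count scaling, which moves all peaks by 0.30), 134 of 165 were below 0, and the other opened peaks had a median of 0.09. Both PScG libraries lay below both ScG libraries at 80 blunted peaks (48.5%), compared with 24.5% of all peaks. The count of 7 became 1 without PScG replicate 1 and 3 without ScG replicate 2. It was 4 under total-count scaling and 12 when these 2 groups were fitted alone. The mitochondrial share differed, at 45.1% ± 0.954 in PScG and 59.4% ± 2.97 in ScG (SD, n = 2), and its part in this result was not tested.

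Of the 7, the peak in Mgll, whose product is monoacylglycerol lipase, chr6:88820797-88821286, measured 4.23 and 5.64 CPM in ScG and 1.99 and 1.67 in PScG (log2 fold change -1.53 ± 0.39, edgeR adjusted p = 0.00656). That is also under its levels in PS (2.67 and 3.43 CPM) and PcG (3.80 and 2.33). A peak at chr3:133630556-133630873, over 50 kb from a gene, dropped from 4.12 and 2.10 CPM to 0.468 and 0.650, with a log2 fold change of -2.54 ± 0.60 (edgeR adjusted p = 0.00261). Another, chr16:5487812-5488131, was called here (-2.20 ± 0.60, edgeR adjusted p = 0.0123) and in PH against H (-1.93 ± 0.63, adjusted p = 0.0366). It was the one member called lower in both contrasts, which share no library.

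Against ZScG, the matched triplet in which depleted zymosan takes the place of PAM, 4 of 165 (2.42%) were lower in PScG. That is close to the 1.79% of all tested peaks. The median log2 fold change was -0.40, compared with 0.15 for the other opened peaks. The 4 lay at Acvr1c, Ifit3, Mgll and Phldb3. Any 1 of the 4 libraries left out gave 2 or fewer, the mitochondrial share was 45.1% in PScG and 58.3% in ZScG, and its part was not tested. Depleted zymosan itself did not have a called effect on the blunted peaks beside SeV and cGAMP. None fell in ZScG against ScG by edgeR or by DESeq2, against 0.448% of all peaks, a share at which a count of 0 does not stand out. At an unadjusted p under 0.05, 8 were lower, against 8188 of all 119464 tested peaks, and the median was -0.11. Both groups of that contrast had high mitochondrial shares.

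With LPS present, PAM lowered no blunted peak by a called amount. So few of all peaks fell there that a count of 0 does not stand out. In PL against L, none of 165 fell and none rose by edgeR (0.362% and 0.765% of all peaks did) or by DESeq2. At an unadjusted p under 0.05, 6 were lower and 8 higher, against 6318 and 7212 of all 119464 tested peaks. The median log2 fold change was 0.13, compared with 0.16 for the other opened peaks. Both PL libraries lay below both L libraries at 30 blunted peaks (18.2%), compared with 24.4% of all peaks. In PLH against LH, again none fell and none rose by edgeR (0.203% and 0.343% of all peaks did) or by DESeq2. Unadjusted, 10 were lower and 8 higher, against 6159 and 6682 of all tested peaks. The median was -0.10, compared with 0.20 for the other opened peaks. Both PLH libraries lay below both LH libraries at 44 (26.7%), compared with 20.5% of all peaks. The mean mitochondrial share was 44.4% in L and 51.6% in PL, and 51.6% in LH and 47.4% in PLH. The part of these differences was not tested.

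**Figure D3:**
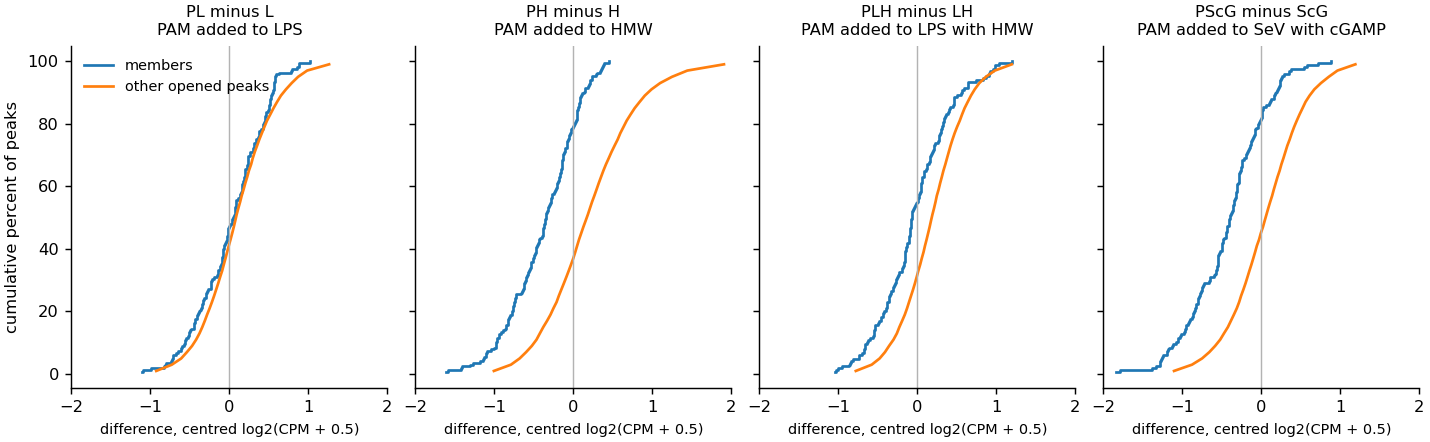
Cumulative percent of peaks (vertical axis) against the change with PAM in centred log2(CPM + 0.5) (horizontal axis) beside LPS, HMW, LPS with HMW, and SeV with cGAMP. The blue curve of the 165 blunted peaks runs left of the orange curve of the other opened peaks beside HMW and beside SeV with cGAMP, where 134 and 134 of the fitted changes are below 0, and close to it beside LPS. Beside LPS with HMW it runs left of it by less, with fitted medians of -0.10 and 0.20.

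Whether the PAM effect differs between partners was tested directly for single peaks, in contrasts added after the values were seen. The effect beside HMW was lower than that beside LPS at 2 of 165 blunted peaks, Sgsm1 and one near Abca2, against 0.198% of all peaks. The median difference of the 2 effects was -0.57. Beside SeV with cGAMP it was lower than beside LPS at 1, against 1.27% of all peaks, with a median of -0.60. Between SeV with cGAMP and HMW it was higher at 1, Sgsm1, against 0.264%, with a median of -0.05 that was 0.19 under total-count scaling. Both of these use PScG against ScG, which crosses the mitochondrial gap. Adding LPS to HMW and PAM shifted the effect upward at 4, against 0.901%, with a median of 0.48. In the opposite directions no blunted peak was called, against 0.755%, 0.878%, 0.769% and 1.68% of all peaks in the same order. With both directions counted, the blunted peaks did not stand out from all peaks. For most blunted peaks the partners were therefore not shown to differ, and counts with 1 library left out were 0 to 2, 1 to 2, 0 to 1 and 0 to 4. Across the 165, the change in PH minus H and that in PScG minus ScG were almost unrelated (Pearson's r = 0.05, Spearman's rho = 0.05), with 131 and 135 below 0 in each and 109 in both. Over the 7077 other opened peaks the same r was 0.36. These points share libraries within each contrast, and the blunted peaks hold few counts.

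PAM alone against depleted zymosan alone gave the largest share of lower calls. In P against Z, 22 of 165 were lower, against 5.99% of all tested peaks, and 1 was higher, against 5.11%. The median log2 fold change was -0.65, compared with 0.02 for the other opened peaks, of which 490 were lower and 691 higher. Without Z replicate 2, 11 were lower. Under total-count scaling, which moves the median of all peaks by 0.34, the split was 16 lower and 3 higher for the blunted peaks and 221 lower and 1413 higher for the other opened ones. The groups lay on either side of the mitochondrial gap (49.5% and 61.7%), so its part and that of the ligands cannot be told apart.

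Among the lower ones, the peak in Tiam1, a Rac exchange factor gene, chr16:89835514-89836033, measured 5.35 and 3.32 CPM in Z and 0.595 and 0.756 in P (log2 fold change -2.80 ± 0.46, edgeR adjusted p = 1.06e-06). It was chosen after its values were seen. The peak in Nr3c2, the mineralocorticoid receptor gene, chr8:77116518-77117123, went from 1.53 and 2.82 CPM in Z to 0.496 and 0.284 in P (-2.64 ± 0.60, edgeR adjusted p = 0.000634). The peak 7107 bp from Dmrtb1 measured 4.74 and 4.42 CPM in Z and 1.49 and 1.32 in P (edgeR adjusted p = 0.000166). Gse1, Atp13a4, Sgsm1, Ifit3, Ifi44 and both Cmpk2 peaks were lower as well. The single higher one lay in Pcm1, a centriolar satellite gene, and was no longer called without P replicate 2 or Z replicate 2.

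**Figure D4:**
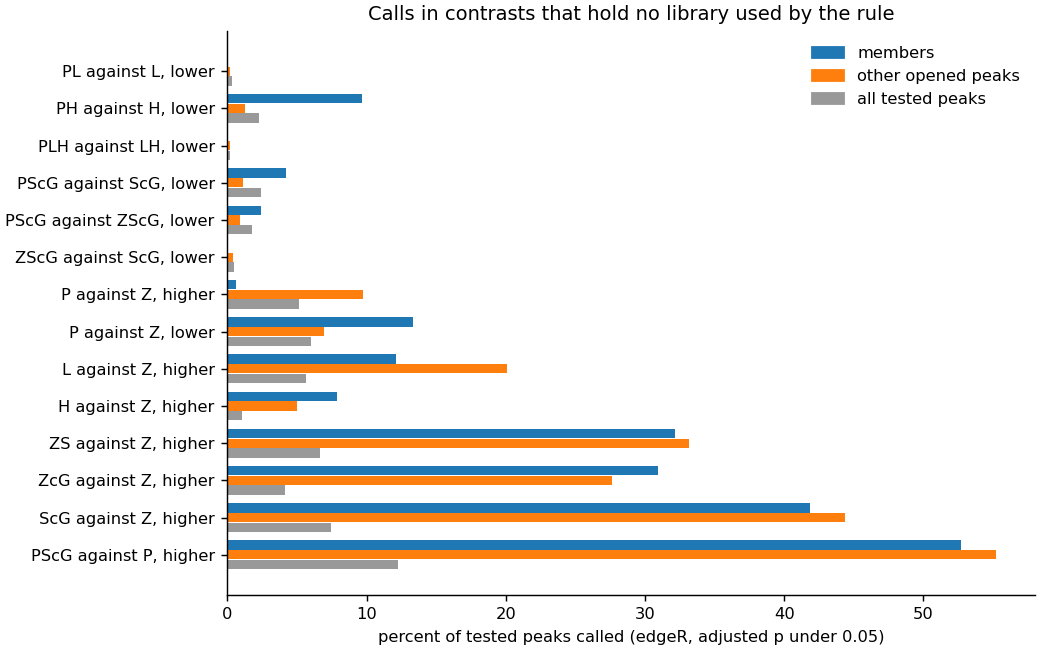
Percent of tested peaks called by edgeR at an adjusted p under 0.05 in the direction named on the vertical axis, for the 165 blunted peaks (blue), the 7077 other opened peaks (orange) and all 119464 tested peaks (grey). Blue exceeds both others for PH against H, PScG against ScG and P against Z, lower, and for H against Z and ZcG against Z, higher. For PScG against ZScG, lower, blue is at 2.42%, close to grey at 1.79%. Blue is 0 for PL against L, PLH against LH and ZScG against ScG, where grey is at most 0.448%.

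SeV or cGAMP added to depleted zymosan opened the blunted peaks as well. In ZS against Z, 53 of 165 rose by edgeR (6.63% of all peaks rose), with a median log2 fold change of 1.00. In ZcG against Z, 51 rose (4.12% of all peaks), with a median of 1.15. ScG holds no zymosan, so ScG against Z compares ligands with each other. There 69 were higher (7.48% of all peaks), with a median of 1.34. These 3 contrasts share the Z libraries. Without Z replicate 2 the counts were 25, 27 and 45. In ZS against Z each other library left out gave 31 or 33, ZcG against Z gave 30 without ZcG replicate 2 and 31 without Z replicate 1, and ScG against Z gave 45 without ScG replicate 2. The shares called among the other opened peaks were 33.2%, 27.6% and 44.4%, close to 32.1%, 30.9% and 41.8% of the blunted peaks. The combined ligands still raised them with PAM present. In PScG against P, 87 of 165 rose (12.3% of all peaks), with a median of 1.60 against 1.09 for the other opened peaks. The shares called were 52.7% and 55.2%, and both groups had low mitochondrial shares.

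LPS alone and HMW alone were each compared with depleted zymosan alone, which itself lay 0.49 above Ctrl. In L against Z, 20 of 165 (12.1%) were higher and 6 (3.64%) lower, against 5.66% and 7.77% of all peaks, with a median log2 fold change of 0.36. The other opened peaks were called higher more often, at 20.1%, with 2.30% lower and a median of 0.52. In H against Z, 13 (7.88%) were higher, against 1.04% of all peaks, with a median of 0.61. There the other opened peaks were at 5.03% higher, with a median of 0.27. Both contrasts cross the mitochondrial gap and share the Z libraries, and its part was not tested. Total-count scaling gave 44 higher and 2 lower in L and 26 higher in H. The count in L was 9 without L replicate 2, 11 without Z replicate 1 and 12 without Z replicate 2, and that in H was 2 to 5 without any 1 of its 4 libraries. The near-Trim30c peak was higher in both (1.46 ± 0.35 and 1.42 ± 0.36, SE, edgeR adjusted p = 0.00102 and 0.00703). Atp13a4 and the peak at chr8:10859595 were among the 6 that were lower in L.

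The interferon-induced genes among the blunted peaks are described one by one, and no test compared them with each other. The peak inside Ifit3, whose product belongs to a family of interferon-induced RNA-binding proteins, measured 12.9 and 12.9 CPM in H and 6.21 and 6.67 in PH, a log2 fold change of -1.03 ± 0.23 (edgeR adjusted p = 0.000697). In L it measured 10.7 and 13.8 CPM and in PL 6.66 and 6.99, also without overlap, but with an edgeR adjusted p of 0.0542. Against ZScG (13.9 and 13.9 CPM) it was lower in PScG (9.95 and 6.23, edgeR adjusted p = 0.0091). Against ScG (8.81 and 9.97) the libraries overlapped. P gave 2.78 and 1.23 CPM, the lowest of all groups, against 7.34 and 6.14 in Z (log2 fold change -1.91 ± 0.32, edgeR adjusted p = 1.4e-06).

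The peak over the promoter of Ifi44, a gene that interferon induces, was called in fewer contrasts. It measured 11.3 and 8.86 CPM in L and 8.09 and 9.14 in PL, which overlap. It measured 7.38 and 9.35 CPM in H and 6.56 and 6.15 in PH, with an edgeR adjusted p of 0.358. Both ScG libraries were at 7.21 and 7.22 CPM and the PScG libraries at 4.80 and 4.18, with a log2 fold change of -0.79 ± 0.28 that missed the threshold (edgeR adjusted p = 0.0835). ZScG was also low, at 4.41 and 5.36 CPM. In P it measured 2.48 and 2.84 against 5.35 and 6.26 in Z (-1.29 ± 0.31, edgeR adjusted p = 0.00153).

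The peak 3513 bp from Trim30c and within 10 kb of Trim30a, genes of an interferon-induced tripartite motif family, chr7:104404365-104405192, was nearly closed in Ctrl, at 0 and 0.695 CPM. It reached 11.5 and 11.5 CPM in S and 12.4 and 12.1 in cG, and 6.33 and 6.53 in PS and 7.67 and 6.20 in PcG. Outside the groups of the rule PAM did not change it by a called amount. PH (5.51 and 5.11 CPM) and H (5.47 and 6.01) overlapped, as did PScG (9.48 and 10.6) and ScG (8.92 and 12.5). PLH (6.46 and 5.08 CPM) lay below LH (8.19 and 10.3), with an edgeR adjusted p of 0.266. The Trim30 genes are similar neighbours, so its assignment to one of them is uncertain.

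Cmpk2 encodes a mitochondrial nucleotide kinase that interferon induces, and both of its blunted peaks lay beyond the gene, 3217 bp apart. The nearer one, chr12:26481988-26482623, measured 3.99 and 3.73 CPM in S, 1.92 and 2.01 in PS, 0.764 and 1.96 in Z and 0.198 and 0 in P. The farther one measured 2.52 and 2.76 CPM in S, 1.08 and 1.14 in PS, 0.917 and 2.21 in Z and 0 and 0.378 in P. Both were lower in P than in Z (edgeR adjusted p = 0.000703 and 0.00161), and neither was called in any of the 4 contrasts of PAM with a partner outside the rule.

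The remaining members at interferon genes were small. The peak inside Art3, near Cxcl11, which encodes a chemokine for T cells, measured 4.89 and 4.45 CPM in H and 3.06 and 3.19 in PH (edgeR adjusted p = 0.28), but 3.47 and 3.31 in L and 6.66 and 4.03 in PL. The peak inside Oas2, a sensor of double-stranded RNA, measured 3.56 and 2.27 CPM in S, 0.417 and 1.58 in PS and 1.72 and 1.71 in ScG. The peak inside Rnf31, whose product is part of the linear ubiquitin ligase, measured 1.37 and 1.05 CPM in ScG and 1.52 and 3.25 in PScG, a higher level that was not called (edgeR adjusted p = 0.385). The farther Cmpk2 peak was higher there too, at 1.49 and 1.71 CPM in ScG and 3.04 and 3.44 in PScG, again not called (edgeR adjusted p = 0.35).

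**Figure D5:**
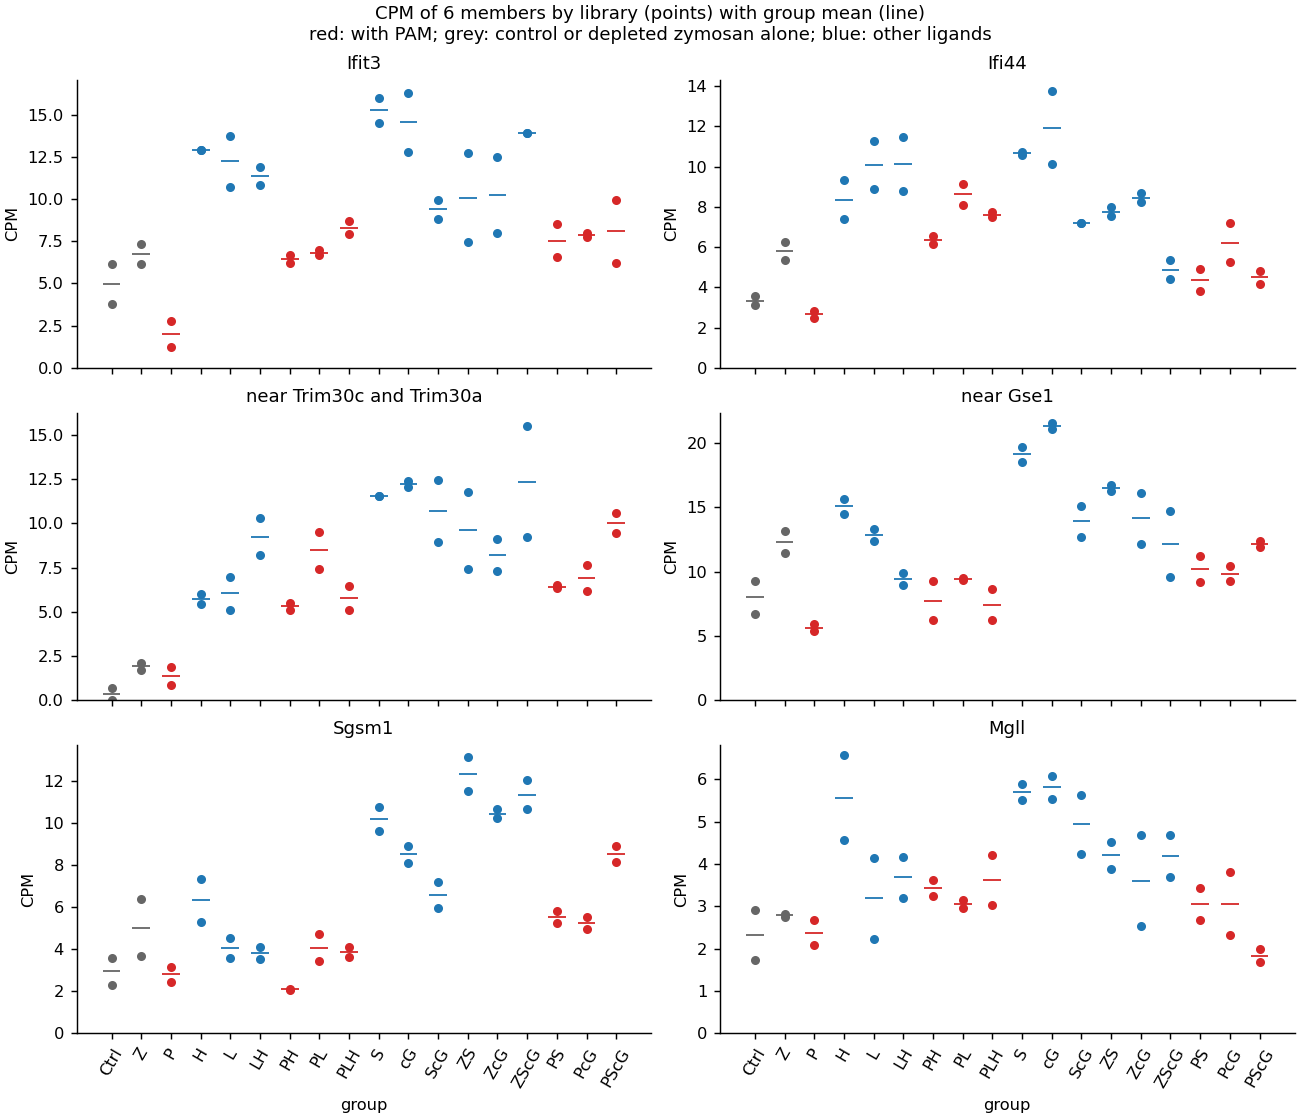
CPM in each library (points) and the group mean (line) across the 18 groups for 6 blunted peaks, at Ifit3, Ifi44, Trim30c and Trim30a, Gse1, Sgsm1 and Mgll. Groups with PAM are red. At Sgsm1 the PH libraries (2.10 and 2.07 CPM) are the lowest pair, and at Mgll the PScG libraries (1.99 and 1.67 CPM) are.

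These 7 peaks are a small part of the accessibility at the same genes. Within 10 kb of the 50 interferon-induced effector genes, 457 peaks were tested, blunted ones included, and in PScG against ScG 6 fell and 13 rose with a median log2 fold change of 0.12. In PH against H 9 fell and 17 rose, in PL against L 9 fell and 2 rose, and in PLH against LH 8 fell and none rose. Of all tested peaks, 2.42% fell and 2.11% rose in PScG against ScG, and 2.27% and 5.28% in PH against H. The shares were 0.362% and 0.765% in PL against L and 0.203% and 0.343% in PLH against LH. Of the 457, 70 were lower and 11 higher in P against Z, where 5.99% and 5.11% of all tested peaks were. The median there was -0.36 over the list and -0.01 over all tested peaks. The lower level in P against Z was thus seen at more peaks of these genes than the blunted ones. P and Z lay on either side of the mitochondrial gap (49.5% and 61.7%), so its part and that of the ligands cannot be told apart. Other scalings were not run for the gene lists. Of 318 peaks at the inflammatory genes, where no blunted peak lay, none fell and 66 rose in PH against H. The median was 0.39, and 2.27% and 5.28% of all tested peaks fell and rose there. In P against Z 3 of those 318 were lower and 66 higher.

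The strongest blunting among members of at least 1 CPM was at peaks of other genes. The Dmrtb1 peak measured 9.63 and 11.7 CPM in S and 2.42 and 3.81 in PS, and 5.95 and 5.99 in cG and 2.42 and 2.41 in PcG. It was 4.00 and 7.35 CPM in ScG and 3.63 and 2.97 in PScG, a log2 fold change of -0.88 ± 0.33 that was not called (edgeR adjusted p = 0.111). The Nr3c2 peak measured 6.07 and 6.25 CPM in S and 2.00 and 2.88 in PS. Further peaks of this kind lay near Wdr1, Srd5a2 and Fat3, inside Iqck, and at chr15:52929143-52929547. None of these 7 was called in a contrast of PAM with a partner outside the rule. Of all tested peaks, 0.203% to 2.42% were lower and 0.343% to 5.28% higher there, so 0 of 7 does not stand out. The mean levels of the 7 were 1.01 to 5.03 CPM.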

How the data were processed

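ATAC-seq libraries from 50000 lysed cells each were amplified for 12 cycles, per the labels' protocols. The authors deposited raw counts per peak, whole numbers without normalization, for 119751 peaks and 36 libraries in 18 groups of 2, with a list of peak positions. Per the submitters' processing notes, Bowtie2 2.2.9, MACS2 (version given as 1.4), bedtools and featureCounts were used with the build mm10. Duplicate handling, the shift of read ends for transposase binding and whether peaks were called on pooled libraries are not given in the sources used here. Reads carry no molecular identifiers, so duplicates may narrow the apparent spread. The number of count columns left unused was 0.

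The rule was applied to counts of chromosomes 1 to 19 without their largest peak, chr1:24611386-24616337, which held 13.6% to 28.8% of those counts per library. Tests used edgeR 4.0.16 in R 4.3.3 (TMM, filterByExpr with a minimum count of 10, glmQLFit robust, glmQLFTest) on all 36 libraries without the mitochondrial peak, 1 coefficient per group and 18 residual degrees of freedom. P-values were Benjamini-Hochberg adjusted over 119464 peaks in each contrast, with a threshold of 0.05. The 13 contrasts hold no library that the rule used. The script was tested on simulated data. Replicates differed by more than counting noise in every group (chi-square per degree of freedom 2.14 to 3.59).

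Members, gene lists and contrasts were chosen with earlier results of these data known. Named are the 8 most open members, the 8 most blunted of at least 1 CPM, the 3 lowest p-values per direction in PL, PH, PLH and PScG against the partner, up to 12 members within 10 kb of a listed gene, and those nearest the threshold. Abca2, Acvr1c, Pcm1, Phldb3, Polr1d, Slco2a1, Tiam1 and the peak on chromosome 18 were chosen after their values were seen. One peak that this rule names is not reported here. Genes were assigned by overlap or by the nearest gene within 50 kb, with RefSeq positions of GRCm38.p6. Exons and introns were not used here. Alternatives were other scalings, no filter, the mitochondrial peak kept, DESeq2 1.42.0, a replicate block, the compared groups alone and 1 library left out.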

Additional observations from a re-analysis of the deposited data

Results flagged for a closer look

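The effect of PAM was called different between partner ligands at 6 of 165 blunted peaks. The difference between 2 effects was fitted as one contrast in edgeR (quasi-likelihood, Benjamini-Hochberg adjusted over all peaks). HMW against LPS gave 2 lower and 0 higher, against 0.198% and 0.755% of all peaks. SeV with cGAMP against LPS gave 1 lower and 0 higher, against 1.27% and 0.878%. SeV with cGAMP against HMW gave 0 lower and 1 higher, against 0.769% and 0.264%. LPS with HMW against HMW gave 0 lower and 4 higher, against 1.68% and 0.901%. The members' shares were 1.21%, 0.606%, 0.606% and 2.42%, which do not stand out from all peaks with both directions counted. At Sgsm1 the log2 effect of PAM beside HMW lay -1.61 from that beside LPS (adjusted p = 0.0364), and the effects beside SeV with cGAMP and beside LPS with HMW lay 1.88 (adjusted p = 0.0039) and 1.61 (adjusted p = 0.018) above that beside HMW. Its H libraries, 5.31 and 7.34 CPM, and its PH libraries, 2.10 and 2.07 CPM, enter all 3 values. Near Abca2, a lipid transporter gene, the difference between HMW and LPS as partner was -1.71 (adjusted p = 0.0417), with 5.72 and 7.12 CPM in H, 2.89 and 3.11 in PH, 2.41 and 3.03 in L and 3.90 and 4.30 in PL.

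At chr3:133630556-133630873 the effect beside SeV with cGAMP lay -3.69 from that beside LPS (adjusted p = 0.00231), with 0.770 and 1.51 CPM in L and 3.05 and 2.02 in PL. This value and the 1.88 at Sgsm1 use PScG against ScG, whose mitochondrial shares were 45.1% and 59.4%, and the part of that gap was not tested. At 3 small peaks the effect beside LPS with HMW lay above that beside HMW, by 3.14 near Polr1d, 2.97 at chr18:13139546-13139878 and 3.04 near Slco2a1, a prostaglandin transporter gene (adjusted p = 0.0173, 0.0283 and 0.0451). These 3 had at most 2.67 CPM in every library of PLH, LH, PH and H. Of the 8 differences, none changed sign in any alternative run, and 4 to 10 of 16 alternatives lost the call for 6 of them. The exceptions were the Sgsm1 difference between SeV with cGAMP and HMW, lost in 1, and that at chr3:133630556, lost in 2. Without H replicate 2 none of the 5 differences that rest on H beside SeV with cGAMP or beside LPS with HMW was called.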

How the results depend on the processing

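Of 243 alternatives run for the 19 counts, 173 stayed within 1.5 times the reported count and 70 did not. The number of members was 489 at a PAM threshold of -0.5, 20 at -1, 73 at an opening threshold of 1.5, 310 and 60 with pseudocounts of 0.25 and 1, and 284 to 331 with 1 replicate left out. It was 132 under TMM scaling (129 shared), 160 with X and Y included, and 118, all among the 165, with the largest peak of chromosomes 1 to 19 kept, a reading of the rule tried after seeing the data. Under total counts, which move the median of all peaks by -0.11 (PL against L) to 0.47 (L against Z), members called were 1 in PL against L, 4 in PScG against ScG, 1 in PScG against ZScG, 3 higher in P against Z, 44 in L and 26 in H against Z. The members' median kept its sign in each of the 13 contrasts. Total counts without that largest peak, also added later, gave 1 in PL against L and 2 in PScG against ZScG. DESeq2 gave 10 in PH against H and 0 higher in P against Z. With only the groups compared in the fit, there were 1 in PL against L, 12 in PScG against ScG, 0 higher in P against Z and 6 in H against Z. The cause of these moves was not tested. With 1 library left out, counts were 6 to 8 in PH against H, 1 to 5 in PScG against ScG, 0 to 2 in PScG against ZScG, 0 to 1 higher in P against Z, 9 to 16 in L, 2 to 5 in H, 25 to 33 in ZS, 27 to 38 in ZcG and 45 to 51 in ScG against Z, and 60 to 75 in PScG against P. They stayed at 0 in PL against L, PLH against LH and ZScG against ScG. The lone library of a group is then assumed to vary like the other groups. For the 75 single-peak changes that were called, 166 of 929 alternatives lost the call and 0 changed direction. Same-numbered libraries did not deviate together (correlations -0.02 to 0.01), so the numbers pair nothing. A replicate block gave 15 in PH against H, 7 in PScG against ScG and 21 lower in P against Z, and moved no count by over 1.5 times. At a median of 17 counts per peak and library, small changes of single members were not detectable.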
